A study of Mus musculus with 7 samples.

Results

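Insulin-like growth factor 1 (Igf1), its receptor Igf1r and the IGF binding proteins Igfbp2 to Igfbp7 were followed through inguinal white adipose tissue, the fat pad of the groin, in NOD mice, a strain that develops autoimmune diabetes. They are the 8 genes with these symbols among 55487 genes of the deposited count table, taken as the first row of each gene identifier, and all 8 passed the filter on low counts. The 4 imBAT libraries came from NOD/ShiLtJ mice given the protein fraction above 100 kDa of buffer conditioned by brown adipocytes, dosed at 1.5 mg/kg. The 3 sham libraries came from NOD/ShiLtJ mice given KRBH buffer. All mice had a blood glucose of 190 to 230 mg/dL and were injected under the skin for 7 days, and the tissue was taken 2 to 8 weeks afterwards. The labels give neither the week nor the age of each animal. Nor do they tie the libraries to separate mice, so the spread behind each p-value is that among libraries and may be technical. The labels do not spell out imBAT or name the source of the brown adipocytes.

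IGF1 is a small secreted hormone, made in liver under growth hormone and also locally in fat, that acts through the receptor tyrosine kinase IGF1R to drive cell growth and survival. The classical IGF binding proteins hold IGFs with high affinity in blood and matrix, where they prolong their life or keep them from the receptor until a protease frees them. IGFBP7 binds IGFs weakly and is mostly a matrix protein of vessels.

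After the injections, Igf1 and 5 of the 6 binding proteins stood higher, and the receptor was not called. Igfbp6 rose 14.1-fold, Igf1 4.98-fold, Igfbp5 4.02-fold, Igfbp2 3.67-fold, Igfbp7 2.34-fold and Igfbp4 1.99-fold. Igf1r was 1.15-fold higher and Igfbp3 averaged 1.52-fold lower in imBAT, and neither was called. So 6 of the 8 genes rose and none fell, beside 24.3% of all tested genes called higher and 19.3% called lower (43.5% in either direction, edgeR's quasi-likelihood test, adjusted p under 0.05 over 26393 genes). The median log2 fold change of the 8 was 1.55, against -0.01 over all genes tested. For the 6 that rose the groups did not overlap, beside 52.0% of tested genes without overlap, 26.8% higher and 25.2% lower in imBAT. Without sham replicate 2 the calls over all genes fell to 7519 in place of 11491, and 5 of the 8 genes were called, as also without sham replicate 3. Upper-quartile scaling moved the median of all genes to -0.25 and turned the 6407 higher and 5084 lower calls into 4722 and 8180. Under it the same 6 genes were called higher, while Igf1r came to -0.03 on the log2 scale.

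The tissue itself differed between the groups. Depth was 43360208 to 63650016 counts per imBAT library and 41025786 to 44983250 per sham library, and the first principal component of all genes held 65.7% of the variance. All 12 white adipocyte markers rose, with a summed level of 10010 to 19450 TMM-scaled CPM in imBAT and 1191 to 2116 in sham. All 10 T cell markers fell, with 175.7 to 548.8 in imBAT and 1054 to 1320 in sham, and so did all 9 B cell markers, with 290.9 to 781.4 in imBAT and 1842 to 2194 in sham. TMM-scaled CPM, the unit of every level here unless a length is named, is the count scaled to the library total after a correction for composition. The TMM correction factors were 0.809 to 0.963 in imBAT and 1.104 to 1.174 in sham. In whole tissue, fewer cells of a type, less RNA per cell and more RNA from other cells cannot be told apart.

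The sequences before the starts of 4 binding protein genes are shown for the largest rise (Igfbp6), the neighbouring pair that rose (Igfbp2 and Igfbp5) and the gene that did not rise (Igfbp3). Each is the 250 bases before a start listed by RefSeq on GRCm38.p6, read along the gene strand, with capitals for the TATA box word TATAAA, for the GC box word GGGCGG and for the word CCAAT, each on either strand. They lie at chr15:102143936-102144185 on the plus strand (Igfbp6), chr1:72824230-72824479 on the plus strand (Igfbp2), chr1:72874866-72875115 on the minus strand (Igfbp5, whose last 19 bases lie in an annotated exon) and chr11:7213924-7214173 on the minus strand (Igfbp3).
Igfbp6: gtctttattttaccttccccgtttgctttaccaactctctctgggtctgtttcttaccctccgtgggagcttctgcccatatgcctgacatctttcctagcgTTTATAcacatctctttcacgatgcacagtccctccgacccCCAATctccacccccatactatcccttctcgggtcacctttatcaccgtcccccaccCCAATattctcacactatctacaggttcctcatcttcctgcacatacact
Igfbp2: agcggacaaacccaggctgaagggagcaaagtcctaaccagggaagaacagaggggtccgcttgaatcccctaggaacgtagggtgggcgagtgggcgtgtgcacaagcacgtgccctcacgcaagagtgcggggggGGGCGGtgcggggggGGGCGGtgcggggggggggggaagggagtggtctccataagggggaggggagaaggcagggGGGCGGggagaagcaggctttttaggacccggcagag
Igfbp5: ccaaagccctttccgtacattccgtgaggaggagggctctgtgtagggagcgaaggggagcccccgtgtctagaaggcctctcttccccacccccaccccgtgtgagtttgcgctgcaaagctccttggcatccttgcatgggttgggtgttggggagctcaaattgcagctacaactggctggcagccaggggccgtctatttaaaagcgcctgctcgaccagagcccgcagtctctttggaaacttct
Igfbp3: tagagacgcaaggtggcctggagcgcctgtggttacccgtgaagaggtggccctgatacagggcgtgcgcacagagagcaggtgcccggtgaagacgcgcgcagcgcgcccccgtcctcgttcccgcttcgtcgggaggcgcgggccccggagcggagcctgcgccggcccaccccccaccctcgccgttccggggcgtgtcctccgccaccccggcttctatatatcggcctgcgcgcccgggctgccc
Igfbp6 held 2 copies of CCAAT and 1 of TATAAA, which lies on the other strand, and the Igfbp2 window shown held 3 copies of GGGCGG. RefSeq lists a second start for Igfbp2, and the window before it, chr1:72825137-72825386, held none of the 3 words. The stretches just after the starts used for Igfbp6 and for the Igfbp2 window shown were not found in a GENCODE transcript, and both windows end short of the gene starts annotated by GENCODE. None of the 3 words is in the windows of Igfbp5 and Igfbp3. Over 32851 windows of the same length, 12.4% held TATAAA, 32.7% GGGCGG and 33.8% CCAAT. The number of CG dinucleotides was 7 in Igfbp6, 14 in Igfbp2, 10 in Igfbp5 and 32 in Igfbp3, against a median of 6 over all windows, and 95.4% of windows had fewer than Igfbp3. These matches describe letters only.

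**Figure D1:**
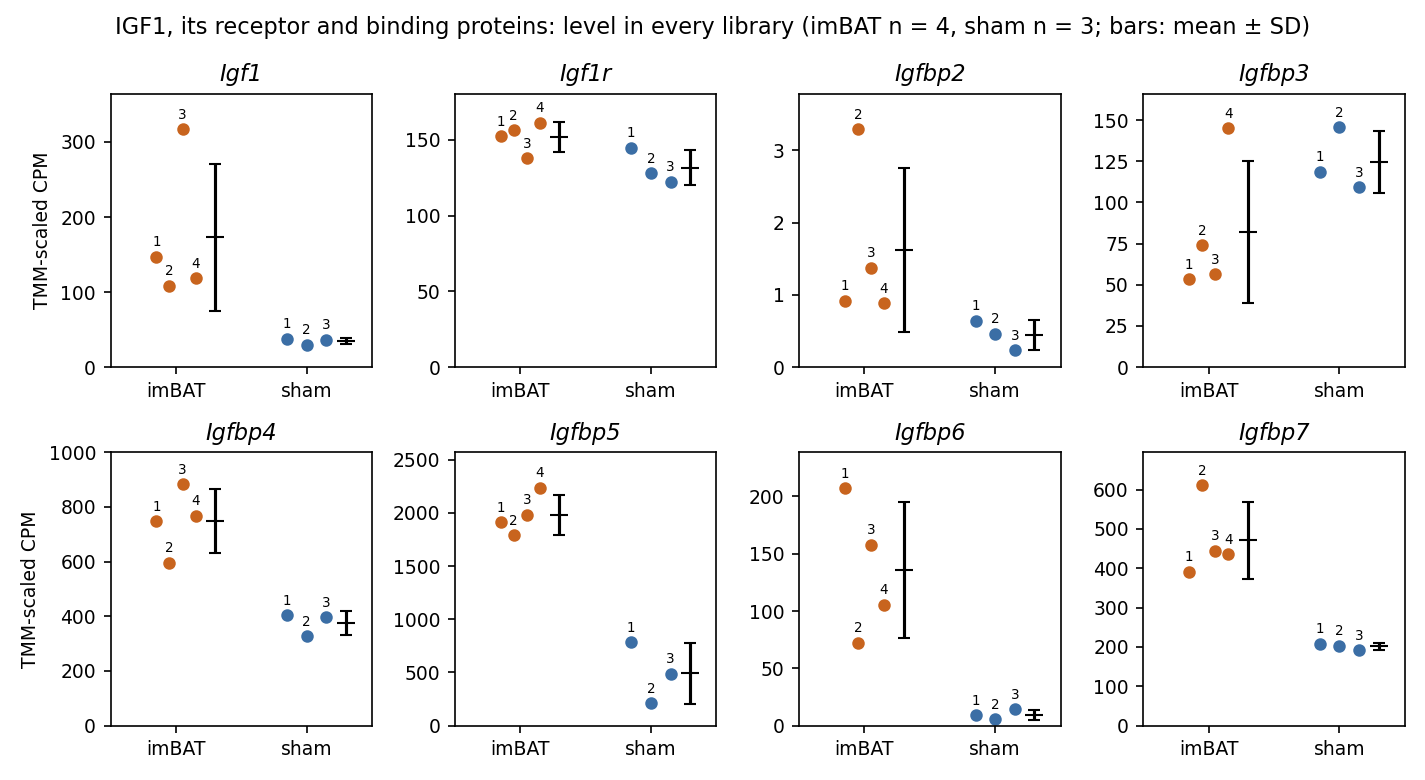
Level of each of the 8 genes in every library, in TMM-scaled CPM on linear axes that start at 0. Points are libraries, numbered by replicate, with 4 imBAT libraries left of 3 sham libraries, and the bars give the mean and its SD. The groups do not overlap for Igf1, Igfbp2, Igfbp4, Igfbp5, Igfbp6 and Igfbp7, and they do overlap for Igf1r and Igfbp3.

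Igf1, the ligand, stood at 147.4, 108.6, 317.1 and 118.8 CPM in imBAT replicates 1 to 4, against 37.86, 29.72 and 36.65 CPM in sham replicates 1 to 3. Every imBAT library lay above every sham library, and imBAT replicate 3 stood far above the other imBAT libraries. The rise was 2.32 ± 0.38 on the log2 scale (SE, adjusted p = 0.00275), larger than that of 96.9% of tested genes. Without imBAT replicate 3 it was 1.79 with an adjusted p of 0.000246. That library also had the most white adipocyte RNA (19450 CPM) and the least T cell RNA (175.7 CPM) by summed markers. It was likewise highest in progenitor and fibroblast (11370 CPM), brown adipocyte (86.55 CPM) and red blood cell (682.0 CPM) markers. It was lowest in B cell markers (290.9 CPM) and, among the imBAT libraries, in mammary epithelium markers (1021 CPM). The part of cell content in the rise of Igf1 was not tested. Igf1 (ENSMUSG00000020053) lies on chromosome 10 at 87858265 to 87937042 (GRCm38, plus strand). Igf1os, an antisense RNA within its span, shares no exon bases with it and had 49 to 124 counts in imBAT and 4 to 20 in sham, beside 4956 to 12893 counts of Igf1 in imBAT and 1480 to 1888 in sham.

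Igf1r, the receptor through which IGF1 signals, stood at 152.1, 156.3, 137.7 and 161.2 CPM in the imBAT libraries and at 144.7, 127.8 and 122.4 CPM in the sham libraries. The groups overlapped through imBAT replicate 3 and sham replicate 1. The difference of 0.21 ± 0.10 on the log2 scale was not called (SE, adjusted p = 0.128), but limma voom with quality weights gave 0.28 and an adjusted p of 0.0197, while upper-quartile scaling gave -0.03. Its coefficient of variation was 6.69% in imBAT and 8.81% in sham, the smallest spread of the 8 genes in imBAT but not in sham. The ratio of Igf1 to Igf1r, both per kb of exon, was 1.64, 1.18, 3.91 and 1.25 in the imBAT libraries and 0.444, 0.394 and 0.507 in the sham libraries, so the transcript of the ligand was the more abundant in each imBAT library and that of the receptor in each sham library.

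Igfbp6, a binding protein that prefers IGF2 to IGF1, had the largest rise. It stood at 206.9, 72.45, 158.0 and 105.4 CPM in imBAT replicates 1 to 4, against 9.018, 5.543 and 14.27 CPM in the sham libraries. The lowest imBAT library lay well above the highest sham library, though the imBAT libraries differed among themselves by a wide margin. The change of 3.82 ± 0.46 on the log2 scale (SE, adjusted p = 0.0011) exceeded that of 99.5% of tested genes, and leaving out single libraries gave 3.54 to 4.22. Adipose progenitor and fibroblast markers rose in 11 of 12 cases. Their summed level was 11200, 7626, 11370 and 6306 CPM in imBAT replicates 1 to 4 and 1086 to 1491 CPM in sham. White adipocyte markers came to 15380, 10010, 19450 and 13160 CPM in the same imBAT libraries and 1191 to 2116 CPM in sham. Macrophage markers came to 2356, 818.1, 1972 and 1824 CPM in imBAT and, overlapping, to 1098 to 1215 CPM in sham. The part of these cell types, or of those in other lists, in the rise of Igfbp6 was not tested.

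Igfbp5 and Igfbp2 are neighbours on chromosome 1, on opposite strands with their ends 5457 bases apart, and both rose. Igfbp5, which binds to matrix, stood at 1916, 1792, 1983 and 2238 CPM in the imBAT libraries, against 784.0, 209.4 and 487.4 CPM in the sham libraries. The imBAT libraries were close to each other, with a coefficient of variation of 9.48%, while the sham libraries spread by 58.2% with sham replicate 2 at the low end. As a log2 fold change the rise was 2.01 ± 0.38 (SE, adjusted p = 0.00463), 1.64 without sham replicate 2 and 2.51 without sham replicate 1. Sham replicate 2 was also the lowest sham library in summed white adipocyte (1191 CPM) and mammary epithelium markers (144.9 CPM, against 278.3 and 485.2 CPM). It was lowest as well in progenitor and fibroblast (1086 CPM), endothelium (711.9 CPM) and pericyte and smooth muscle markers (557.4 CPM). The same held for brown adipocyte, red blood cell and B cell markers. In macrophage (1215 CPM) and lymphatic endothelium markers (129.6 CPM) it was the highest sham library. The part of these cell types was not tested.

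Igfbp2, a circulating binding protein with an integrin-binding motif, was scarce, with 50, 201, 56 and 37 counts in the imBAT libraries and 29, 23 and 12 counts in the sham libraries. As levels these were 0.922, 3.29, 1.38 and 0.887 CPM in imBAT and 0.641, 0.462 and 0.233 CPM in sham. The groups did not overlap, but the margin between imBAT replicate 4 and sham replicate 1 was small. The rise of 1.87 ± 0.58 on the log2 scale (SE, adjusted p = 0.0288) was 1.26 without imBAT replicate 2, and its call was lost when sham replicate 2 (adjusted p = 0.0801) or sham replicate 3 (adjusted p = 0.0997) was left out.

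Igfbp7, a matrix protein of vessels that binds IGFs weakly, stood at 391.3, 611.2, 444.3 and 435.2 CPM in the imBAT libraries and at 207.9, 203.6 and 192.2 CPM in the sham libraries. The sham libraries lay within a coefficient of variation of 4.06%, and imBAT replicate 2 was the highest library. The rise was 1.23 ± 0.16 on the log2 scale (SE, adjusted p = 0.00134). In imBAT replicate 2 the summed markers of endothelium (1255 CPM), pericytes and smooth muscle (1608 CPM) and mammary epithelium (1788 CPM) were also at their highest. Those of macrophages (818.1 CPM) and lymphatic endothelium (81.09 CPM) were at their lowest there. Among the imBAT libraries it was also highest in T cell (548.8 CPM) and B cell markers (781.4 CPM). It was the lowest of them in white adipocyte (10010 CPM) and red blood cell markers (322.7 CPM). The part of these cell types was not tested. Igfbp7 shares 85 exon bases with Polr2b on the other strand, a gene with 3271 to 4516 counts in imBAT and 3743 to 4284 in sham, so some of its reads may belong to that gene.

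Igfbp4, an inhibitory binding protein that the protease PAPP-A cuts, stood at 747.4, 596.2, 882.4 and 767.7 CPM in the imBAT libraries and at 404.9, 326.9 and 396.9 CPM in the sham libraries. The groups stood clearly apart. As a log2 fold change this was 0.99 ± 0.15 (SE, adjusted p = 0.00223), and leaving out single libraries gave 0.85 to 1.09.

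Igfbp3, the main carrier of IGFs in blood, was the exception among the binding proteins. It stood at 53.29, 73.89, 56.27 and 145.0 CPM in imBAT replicates 1 to 4 and at 118.6, 145.7 and 109.4 CPM in the sham libraries. In 3 imBAT libraries it lay below every sham library, and imBAT replicate 4 lay with the sham libraries. The log2 fold change of -0.60 ± 0.33 was not called (SE, adjusted p = 0.17), and without imBAT replicate 4 it was -1.03 with an adjusted p of 0.00489. Leaving out any other library gave -0.68 to -0.44 with no call.

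**Figure D2:**
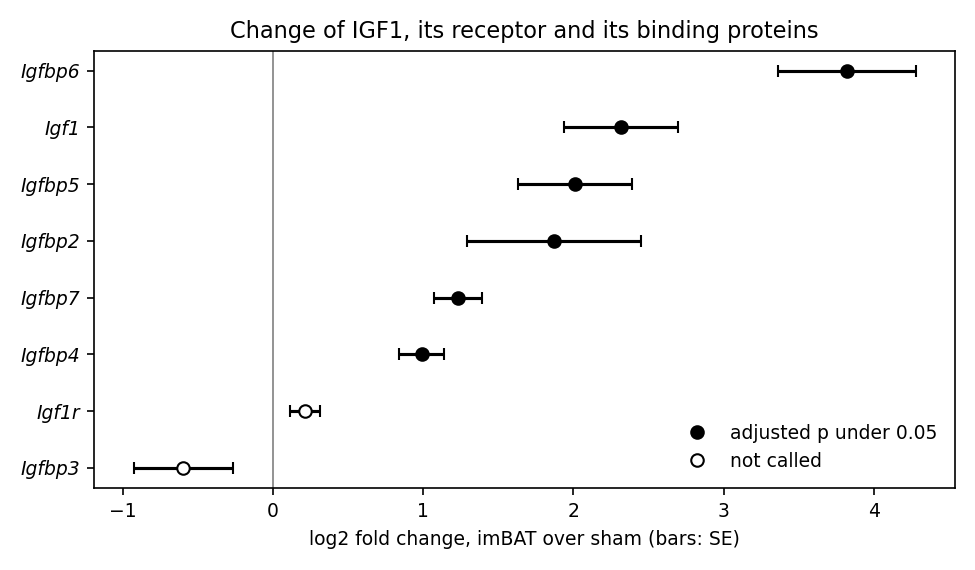
Log2 fold change of each of the 8 genes, imBAT (n = 4) over sham (n = 3), with the SE as bars, ordered by size. Filled points are called at an adjusted p under 0.05, from Igfbp4 at 0.99 to Igfbp6 at 3.82, and open points are not, Igf1r at 0.21 and Igfbp3 at -0.60.

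Levels of the 8 genes can be compared with each other per length, as TMM-scaled CPM per kb of merged exons. In imBAT, Igfbp7 averaged 389.2 ± 79.9 and Igfbp5 330.1 ± 31.3, followed by Igfbp4 at 169.5 ± 26.6, Igfbp6 at 122.0 ± 53.2, Igfbp3 at 26.23 ± 13.7, Igf1 at 17.46 ± 9.84, Igf1r at 9.04 ± 0.61 and Igfbp2 at 0.88 ± 0.61 (SD, n = 4). The ranges overlapped between Igfbp7 and Igfbp5, between Igfbp4 and Igfbp6, and between Igfbp3 and Igf1, and all other neighbours in this order were separate. In sham, Igfbp7 averaged 166.5 ± 6.75, Igfbp4 85.19 ± 9.72, Igfbp5 82.19 ± 47.8, Igfbp3 39.80 ± 6.03, Igfbp6 8.64 ± 3.95, Igf1r 7.84 ± 0.69, Igf1 3.51 ± 0.44 and Igfbp2 0.24 ± 0.11 (SD, n = 3). There Igfbp4, Igfbp5 and Igfbp3 overlapped in turn, as did Igfbp6 and Igf1r. Among 26332 tested genes with a length, Igfbp7 ranked 73 in imBAT and 132 in sham by this measure, and Igfbp6 ranked 260 in imBAT and 6187 in sham.

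Summed per kb, Igfbp2 to Igfbp7 came to 1016, 1030, 1058 and 1048 in the imBAT libraries and to 440.6, 329.1 and 377.9 in the sham libraries. The imBAT libraries were nearly equal in this sum although they divided it differently. Igfbp7 took 31.9%, 49.1%, 34.7% and 34.3% of it in imBAT replicates 1 to 4 and 39.0%, 51.2% and 42.1% in the sham libraries. Igfbp6 took 18.3%, 6.33%, 13.4% and 9.05% in imBAT, against 1.84%, 1.51% and 3.40% in sham. Igfbp3 took 1.68%, 2.29%, 1.70% and 4.42% in imBAT, against 8.60%, 14.1% and 9.25% in sham, so its share was lower in every imBAT library, imBAT replicate 4 included. Igfbp5 averaged 31.8% ± 2.74 in imBAT and 20.6% ± 9.55 in sham (SD), and Igfbp4 16.3% ± 2.38 in imBAT and 22.4% ± 1.49 in sham. These shares are given as a description without a test.

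**Figure D3:**
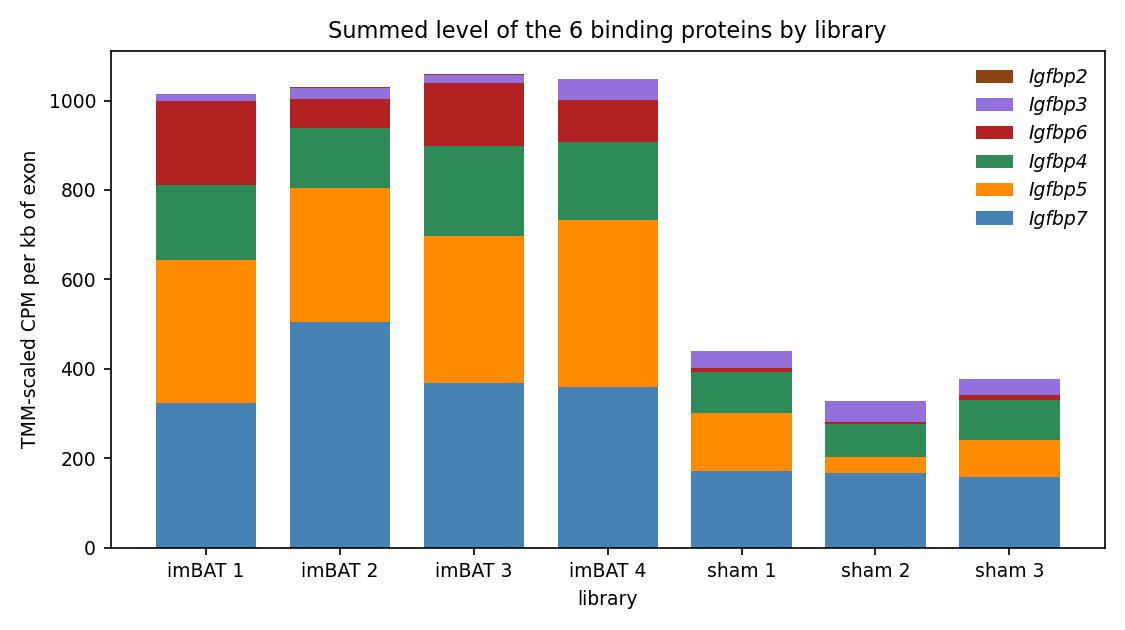
Summed level of Igfbp2 to Igfbp7 in each library, in TMM-scaled CPM per kb of exon, with 4 imBAT libraries left of 3 sham libraries and 1 colour per gene. The bars reach 1016 to 1058 in imBAT and 329.1 to 440.6 in sham, the Igfbp6 segment is taller and the Igfbp3 segment a smaller share in every imBAT library, and Igfbp2 is too scarce to see.

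Set against the summed binding proteins, Igf1 came to 14.7, 10.6, 30.3 and 11.4 per 1000 in the imBAT libraries and to 8.68, 9.12 and 9.79 per 1000 in the sham libraries. The groups did not overlap, with imBAT replicates 2 and 4 close to the sham values, replicate 1 higher and replicate 3 highest. Against Igfbp4 alone, Igf1 came to 69.0 to 160 per 1000 in imBAT and to 40.5 to 41.7 per 1000 in sham, and against Igfbp3 to 259 to 1780 per 1000 in imBAT and 64.5 to 106 per 1000 in sham. Against the abundant Igfbp5 and Igfbp7 the groups overlapped, with 32.2 to 97.0 per 1000 of Igfbp5 in imBAT and 29.3 to 86.1 in sham, and 21.7 to 87.1 per 1000 of Igfbp7 in imBAT and 17.8 to 23.3 in sham. They overlapped against the scarce Igfbp2 too. Against Igfbp6 the order turned round, with 80.0 to 225 per 1000 in imBAT and 288 to 602 per 1000 in sham. Ratios between genes of 1 library do not depend on the scaling between libraries.

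The genes most like each of the 8 were found by the root-mean-square difference of their centred log2 CPM over the 7 libraries, among 14828 candidates of at least 1 CPM on average. This measure follows both the group difference and the spread within groups, and says nothing of shared control. Closest to Igf1 were Echdc1, an enzyme that clears a side product of fatty acid synthesis (0.114), and the interferon-inducible Ifi27 (0.122). Closest to Igfbp5 were Slc7a10, an amino acid transporter of the adipocyte surface (0.152), and Clip4 (0.162). Closest to Igfbp6 were Rasd1, a glucocorticoid-induced Ras-like protein (0.232), and Mfap5, of matrix microfibrils and itself in the progenitor and fibroblast list (0.256). Closest to Igfbp7 were Gclm, of glutathione synthesis (0.076), and Tgfb1i1 (0.12). Closest to Igfbp4 were Zc2hc1a (0.057) and Wls, which carries Wnt proteins to the cell surface (0.061). Igf1r was closest to Dctd (0.033) and the stress-response factor Atf4 (0.036), and Igfbp2 to Rbm20 (0.27) and Cdk18 (0.315). Igfbp3 was closest to the ribosomal protein pseudogenes Rpl17-ps10 (0.118) and Rpl10-ps5 (0.154), whose reads cannot be told apart with certainty from those of their parent genes. Among the 8 themselves, Igfbp4 and Igfbp7 were most alike (0.35) and Igfbp3 and Igfbp6 least (2.41).

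The genes next to 3 of the binding proteins show what lies beside them on the chromosome. Igfbp6 lies on chromosome 15 at 102144362 to 102149511, and its nearest protein-coding neighbours are Soat2, 1014 bases away, and Spryd3, 8127 bases away. Neither was called, with log2 fold changes of -0.72 ± 0.27 for Soat2 and 0.17 ± 0.09 for Spryd3 (adjusted p = 0.0562 and 0.155). Igfbp4, on chromosome 11 at 99041244 to 99054392, stands between Top2a, of dividing cells, which fell by 1.34 on the log2 scale, and Tns4, which rose by 1.41 (adjusted p = 0.00157 and 0.00384). Igfbp3, on chromosome 11 at 7206086 to 7213923, lies 3539 bases from Igfbp1, a liver binding protein that had 2 counts in imBAT replicate 1, 2 counts in sham replicate 3 and none in the other libraries.

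Other genes of the IGF system were mixed in direction. Of 46 tested genes in 6 lists, 26 rose, 8 fell and 12 were not called, with a median log2 fold change of 0.50, beside -0.01 over all genes and 24.3% and 19.3% of all genes called higher and lower. Among the other ligand, receptors and carriers, 4 of 5 tested genes rose and 1 fell. Igfals, the subunit that holds IGF and IGFBP3 in a ternary complex, rose by 2.69 ± 0.40 to 28.32 ± 11.8 CPM in imBAT, against 4.39 ± 1.75 CPM in sham. The insulin receptor Insr rose by 0.77 ± 0.13, and Igf2r, which clears IGF2, by 0.58 ± 0.11. Igf2 itself was scarce at 2.05 ± 0.51 CPM in imBAT and 1.00 ± 0.27 CPM in sham, and its call (log2 fold change 1.03, adjusted p = 0.0228) was lost without imBAT replicate 3, sham replicate 2 or sham replicate 3. Insrr, the orphan relative of both receptors, fell to 4.28 ± 1.68 CPM in imBAT, against 14.63 ± 1.01 CPM in sham (log2 fold change -1.77, adjusted p = 0.00349).

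Of 8 genes of the growth hormone input, 2 rose and 3 fell, and 2 rose and 5 fell with upper-quartile scaling. The growth hormone receptor Ghr rose to 595.8 ± 285.3 CPM in imBAT, against 41.63 ± 11.3 CPM in sham (log2 fold change 3.84 ± 0.41, adjusted p = 0.000937), and Stat5a, a transcription factor of that receptor, rose by 1.02 ± 0.12. The feedback inhibitors Socs1 and Socs3 fell by 1.11 ± 0.15 and 0.55 ± 0.11 on the log2 scale. Jak2 also fell, by 0.38 ± 0.11 (adjusted p = 0.0267), a call lost without imBAT replicate 1 or 4 or sham replicate 2 or 3. Stat5b was not called, at -0.10 ± 0.09 (adjusted p = 0.408), except with upper-quartile scaling (-0.34, adjusted p = 0.0243). Socs2, the inhibitor induced by growth hormone, stood at 41.66 ± 12.8 CPM in imBAT and 31.76 ± 4.16 CPM in sham and was not called (adjusted p = 0.218), except without imBAT replicate 3 (adjusted p = 0.0269). The other inhibitor of this set, Cish, was not called either, at 12.08 ± 3.91 CPM in imBAT and 17.81 ± 2.21 CPM in sham (adjusted p = 0.117), except with upper-quartile scaling (adjusted p = 0.0401).

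Of 5 genes that release or guard bound IGF, 3 rose and none fell. PAPP-A (Pappa), the metalloprotease that cuts IGFBP4 and IGFBP5, rose by 1.60 ± 0.30 to 14.47 ± 3.88 CPM in imBAT, against 4.78 ± 1.71 CPM in sham (adjusted p = 0.00431). Its inhibitor stanniocalcin 2 (Stc2) rose by 1.86 ± 0.32 to 331.2 ± 72.0 CPM in imBAT, against 90.98 ± 42.3 CPM in sham. Htra1, a serine protease that cuts IGFBP5, rose by 2.01 ± 0.23 to 219.5 ± 64.1 CPM in imBAT, against 54.36 ± 5.81 CPM in sham. The relatives Pappa2 and Stc1 were not called, at 2.00 ± 0.31 and 5.86 ± 1.60 CPM in imBAT and at 2.19 ± 0.28 and 4.64 ± 1.17 CPM in sham.

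Of 8 receptors and matrix partners of the binding proteins, 6 rose and 1 fell, with 5 to 6 higher and 0 to 2 lower across the settings. The gene that fell was Vtn (log2 fold change -0.42, adjusted p = 0.037). Its call was lost without imBAT replicate 1 or 2 or any sham library. Lrp1, an endocytic receptor that binds IGFBP3, rose by 1.90 ± 0.23, and Cd93, an endothelial receptor for IGFBP7, by 1.30 ± 0.20 (adjusted p = 0.00108 and 0.00219). The integrin subunits Itgav and Itga5 rose by 0.72 ± 0.11 and 0.86 ± 0.13. Of 18 adaptors and signalling genes, 10 rose and 3 fell, and 7 rose and 5 fell with upper-quartile scaling. Irs1, the docking protein of both receptors, rose to 360.7 ± 79.4 CPM in imBAT, against 81.86 ± 45.7 CPM in sham (log2 fold change 2.14 ± 0.37, adjusted p = 0.00316). Grb14, an adaptor that restrains the insulin receptor, rose by 2.59 ± 0.41. Pik3r1, the regulatory subunit of PI3-kinase, rose by 1.11 ± 0.12, the adaptor Grb10, which restrains both receptors, by 1.74 ± 0.18, and the ubiquitin ligase Nedd4 by 1.46 ± 0.18. The adaptor Grb2 fell by 0.42 ± 0.10 on the log2 scale. Of 2 tested IGF2 mRNA-binding proteins, Igf2bp2 rose by 1.42 ± 0.28 and Igf2bp3 was not called (log2 fold change -0.33, adjusted p = 0.0805), though DESeq2 (adjusted p = 0.0189), limma voom (adjusted p = 0.0444) and upper-quartile scaling (adjusted p = 0.0108) each called it lower.

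**Figure D4:**
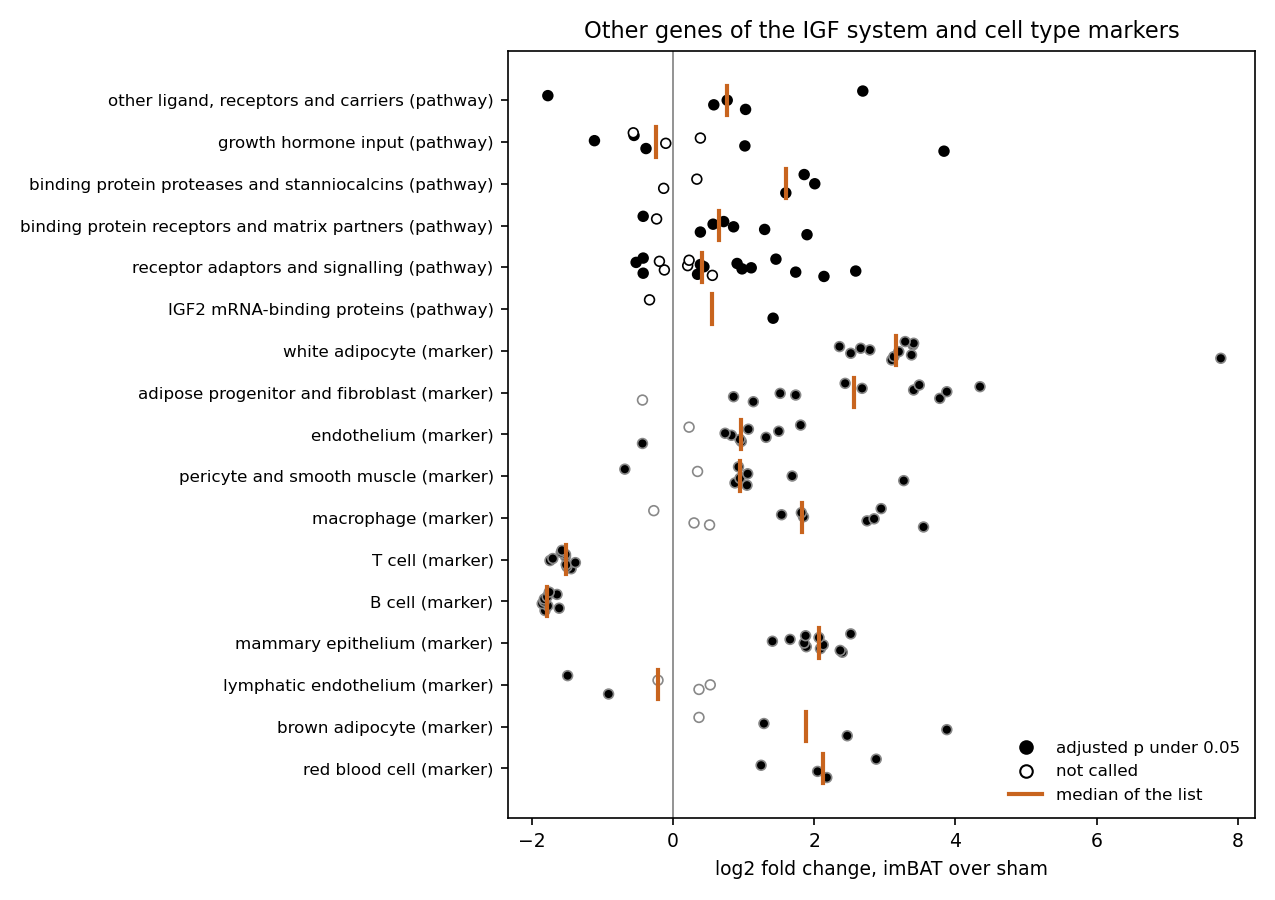
Log2 fold change, imBAT (n = 4) over sham (n = 3), of tested genes of the IGF system and of cell type markers, 1 row per list. Filled points are called at an adjusted p under 0.05, open points are not, and the orange line is the median of the list, such as 1.60 for binding protein proteases and stanniocalcins, 3.16 for white adipocyte and -1.78 for B cell markers.

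Marker lists of other cell types of the tissue also differed between the groups. Of 10 endothelial markers 8 rose and 1 fell, with a summed level of 973.4 to 1255 CPM in imBAT and 711.9 to 814.3 CPM in sham. For pericytes and smooth muscle, 7 of 9 markers rose and 1 fell, with 1059 to 1608 CPM in imBAT and 557.4 to 756.6 CPM in sham. Of 10 macrophage markers 7 rose and none fell, but the summed level overlapped, at 818.1 to 2356 CPM in imBAT and 1098 to 1215 CPM in sham. All 11 mammary epithelium markers rose, with 1021 to 1788 CPM in imBAT and 144.9 to 485.2 CPM in sham. Of 4 tested red blood cell markers all rose, of 4 tested brown adipocyte markers 3 rose, and of 5 tested lymphatic endothelium markers 2 fell. Median log2 fold changes were 3.16 for white adipocyte, 2.56 for progenitor and fibroblast, 2.07 for mammary epithelium, 1.83 for macrophage, 0.96 for endothelium and 0.95 for pericyte and smooth muscle markers, beside 1.55 for the 8 genes. No marker of these lists was at 0 in all libraries, though the brown adipocyte marker Ucp1 had at most 83 counts in imBAT and 12 in sham. The part of these cell types in the changes of the 8 genes was not tested.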

How the data were processed

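The authors deposited raw counts of reads by gene for 7 libraries in 1 table. Per the labels' protocols, a NovaSeq 6000 was used for sequencing and STAR 2.7.9a for alignment, against the Ensembl release 101 primary assembly. Per the submitters' processing notes, featureCounts 2.0.3 and Salmon 1.5.2 were among the tools, without their roles. Whether counting used strand, and how multiply mapped reads were treated, is not given in the sources used here, so antisense and overlapping genes may share reads.

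Of 55774 rows, 287 repeated an identifier with identical counts and were dropped. Libraries of the same group were not alike within sampling noise (chi-square of 20.4 to 216.1 per degree of freedom). Counts were tested with edgeR 4.0.16 in R 4.3.3 by the robust quasi-likelihood F test, with TMM scaling, the default filter (minimum count 10) and group alone as the model, with 5 residual degrees of freedom. The Benjamini-Hochberg adjustment ran over 26393 genes, and genes under 0.05 were called. The SE is the size of the log2 fold change divided by the square root of F. Lengths and coordinates came from GENCODE M21 on GRCm38, in which 55227 of the identifiers were present, and sequences from RefSeq on GRCm38.p6, which matched all 8 genes. The steps were tested on simulated data with far fewer changed genes than were called here. That simulation therefore did not check the scaling under a shift of this breadth.

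The 8 genes and all lists were chosen with earlier results of these data known. Named genes were the 8, up to 4 genes of a pathway list by smallest p, and the 2 most like each of the 8. Igf2, Jak2, Stat5b, Socs2, Cish, Pappa2, Vtn, Irs1, Grb2 and the chromosomal neighbours fall outside this rule and were chosen after their values were seen. Other settings tried were DESeq2 1.42.0 and limma 3.58.1 voom, scaling by RLE or the upper quartile, either no filter or a floor of 1 CPM in 3 libraries, a replicate block, leaving out each library, thinning the counts, and a threshold of 0.10.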

Additional observations from a re-analysis of the deposited data

Results flagged for a closer look

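In imBAT replicate 2, Igfbp7 made up 49.1% of the summed binding protein level per kb, against 31.9% to 34.7% in the other imBAT libraries, a gap of 0.834 of the range of the group, past the limit of Dixon's test at 95% confidence. In the same library the summed red blood cell markers came to 322.7 CPM, where the other imBAT libraries held 635.1 to 682.0 CPM, a gap of 0.869 of the range. These were 2 of 71 measures examined in the imBAT group, and chance alone flags about 5% of such groups. The sham group, with 3 libraries, was not checked in this way.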

How the results depend on the processing

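Igf1, Igfbp4, Igfbp5, Igfbp6 and Igfbp7 kept their direction and their call under each alternative run. Igf1r was called with limma voom (0.28), and its sign turned without a call under upper-quartile scaling (-0.03). Leaving out 1 library at a time gave 7519 to 11403 called genes, 1.26 to 2.22 for Igfbp2, whose call was lost without sham replicate 2 (1.91) or sham replicate 3 (1.56), and -1.03 to -0.44 for Igfbp3, called without imBAT replicate 4. Igfbp2 was not tested when at least 1 CPM in 3 libraries was required. Of the 8 genes, 5 to 7 were called across the alternatives. In the order of levels in sham, 2 positions changed with the longest transcript as length, and 0 to 2 when single libraries were left out. The cause of these differences was not tested. Calls over all genes numbered 10378 with no filter, 12946 with DESeq2, 13720 with limma voom and 14080 at an adjusted p under 0.10. The labels do not say what the numbers that open the titles mean, and they were not taken to pair the libraries. Deviations of same-numbered libraries correlated at -0.01, 0.1 and 0.11, and those of other pairs at -0.14 to 0.04, so not every library correlated best with its own number. With the numbers as a replicate block 10853 genes and 6 of the 8 were called, with Igfbp2 at 1.31 and Igfbp3 at -0.71. The number 22 occurs for imBAT replicate 2 alone, so that library adds nothing to the group difference in the blocked fit. Leaving it out without a block gave 1.26 for Igfbp2 and -0.55 for Igfbp3. Among pathway genes, 38 refits lost a call, 12 gained one and 640 stayed on the same side of the threshold, called or not. Counts of Igfbp2, at most 201 in a library, limit its precision.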
